A study of Arabidopsis thaliana with 8 samples.

Results

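Glucosinolates are sulfur-rich thioglucosides that Brassicales such as Arabidopsis thaliana store in their leaves as a defence against herbivores and microbes. Aliphatic glucosinolates start from methionine, whose side chain is lengthened in a cycle before the core structure is built, and indole glucosinolates start from tryptophan. R2R3-MYB transcription factors, one trio for each branch, switch on the synthesis genes, and myrosinases cleave the finished compounds when tissue is damaged. The genes described here were named by locus and cover these roles: 6 MYB regulators, 8 genes of chain elongation, 15 of the core structure, 8 of side-chain modification and 2 myrosinases. Of these 39 loci, 38 had a row among the 36796 gene identifiers of the count table, 36 had enough counts to be tested, and AOP2 (AT4G03060) was not analysed here.

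The libraries were poly(A) RNA-seq of whole Arabidopsis rosettes of the Col-0 ecotype, 17 days old, 4 from wild type plants and 4 from the double mutant hta9 hta11, each made from a pool of 5 plants. Both mutated genes code for H2A.Z, which replaces the core histone H2A in part of the nucleosomes. The study asked how transcript levels differ in plants with perturbed chromatin homeostasis. All plants were grown on soil under 16 hours of light and 8 hours of dark at 22 °C and collected 6 hours after lights on, before bolting. The labels name neither the alleles nor the kind of mutation.

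Library totals ran from 31611735 to 47467130 counts. Levels are in CPM, counts scaled to library size, and a gene changed when its adjusted p in edgeR's quasi-likelihood test was under 0.05 over all 20214 genes tested. HTA9 lay at 86.0 to 103.9 CPM in the wild-type libraries, and at 60.6, 14.8, 33.4 and 16.5 CPM in hta9 hta11 libraries 1 to 4, and HTA11 at 38.5 to 54.1 CPM and at 26.0, 2.98, 14.1 and 3.60 CPM. HTA9 fell (log2 fold change -1.60, adjusted p = 0.0457), and HTA11 did not pass (-1.93, adjusted p = 0.0924). Libraries 1 and 3 of the mutant held more of both transcripts than libraries 2 and 4, and counts are given below with and without them. Of the tissue markers, all 5 leaf mesophyll genes were abundant, with 51289 to 59915 CPM in sum in the wild type and 46962.7 to 52956 CPM in hta9 hta11. Of 4 root markers, RHD6 had no count and the sum of all 4 was at most 2.39 CPM in a library, and both seed markers stayed under 1 CPM.

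In hta9 hta11 rosettes 2 of the 36 tested glucosinolate genes fell, and 34 did not pass. Those 2 modify side chains: FMO GS-OX1, an S-oxygenase of aliphatic glucosinolates, and CYP81F2, a hydroxylase of indole glucosinolates. The 2 that fell are 5.56% of the members, beside 1.25% of all tested genes that fell and 3.74% that changed in either direction. No member rose in edgeR, DESeq2 or limma-voom, beside 2.49% of all tested genes that rose in edgeR. At an unadjusted p under 0.05 1 member was higher, beside 9.58% of all tested genes. The other members lay mostly a little below the wild type. Of the 36 log2 fold changes 31 were below 0, beside 50.3% of all tested genes, and their median was -0.20, beside -0.001 for all tested genes. All 5 leaf mesophyll markers were below 0 as well, with a median of -0.15 and 1 at an unadjusted p under 0.05, and none passed. Their part in the members' values was not tested. These counts describe the members, which had been listed with earlier results of these data known, and they carry no test of the list.

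When 1 library was left out the log2 fold changes ran from -0.56 to -0.40 for FMO GS-OX1 and from -0.70 to -0.52 for CYP81F2, but the calls were often lost. FMO GS-OX1 and CYP81F2 also passed with RLE scaling, with at least 1 CPM in 4 libraries, with a replicate block and in limma-voom, in which 3.79%, 3.17%, 4.19% and 3.59% of all tested genes changed. DESeq2, in which 6.86% of all genes changed, called 5 members, all lower: the same pair, FMO GS-OX3, GSTF11 and SUR1. FMO GS-OX1 passed alone with upper-quartile scaling (3.7% of all genes), and FMO GS-OX3 passed beside both without a count filter (3.1%). No member passed without wild type library 1 or 3 (2.18% and 1.94% of all genes), without hta9 hta11 library 2, 3 or 4 (1.44%, 2.61% and 1.02%), or without hta9 hta11 libraries 1 and 3 together, where 4.53% of all genes changed. In that last fit the log2 fold change was -0.57 (SE 0.15) for FMO GS-OX1 and -0.62 (SE 0.19) for CYP81F2. Without wild type library 2 FMO GS-OX1 and FMO GS-OX3 passed (2.13%), without wild type library 4 CYP81F2 (2.31%), and without hta9 hta11 library 1 both FMO GS-OX1 and CYP81F2 (6.13%).

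The windows from 250 bases before to 50 bases after the annotated start are shown for the 2 genes that fell and for CYP79F1 and CYP83A1, the P450 enzymes that open the aliphatic core, because both of these hold an AC element. They were read from RefSeq's TAIR10.1 assembly, 5′ to 3′ on the gene's strand, at chr1:24502727-24503026 (minus strand), chr5:23187590-23187889 (plus), chr1:5608432-5608731 (plus) and chr4:7992380-7992679 (minus). Capitals mark matches on either strand to any of 5 motifs, which were chosen after the expression values were known: the G-box CACGTG that MYC factors bind, the W-box core TTGAC of WRKY factors, the AC elements ACCTACC and ACCAACC known as binding sites of R2R3-MYB factors, and GAGAC, the core of a sulfur-responsive element.
FMO GS-OX1: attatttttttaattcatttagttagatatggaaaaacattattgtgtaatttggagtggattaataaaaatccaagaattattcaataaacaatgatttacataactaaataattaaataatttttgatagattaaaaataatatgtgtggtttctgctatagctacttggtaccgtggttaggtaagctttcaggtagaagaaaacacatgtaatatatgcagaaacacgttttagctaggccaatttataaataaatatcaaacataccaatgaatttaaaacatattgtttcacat
CYP81F2: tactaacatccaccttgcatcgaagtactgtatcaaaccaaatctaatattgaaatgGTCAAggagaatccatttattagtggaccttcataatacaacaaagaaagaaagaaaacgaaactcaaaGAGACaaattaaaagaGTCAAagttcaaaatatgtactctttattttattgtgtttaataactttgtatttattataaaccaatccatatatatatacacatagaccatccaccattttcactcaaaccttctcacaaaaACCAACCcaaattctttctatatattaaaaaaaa
CYP79F1: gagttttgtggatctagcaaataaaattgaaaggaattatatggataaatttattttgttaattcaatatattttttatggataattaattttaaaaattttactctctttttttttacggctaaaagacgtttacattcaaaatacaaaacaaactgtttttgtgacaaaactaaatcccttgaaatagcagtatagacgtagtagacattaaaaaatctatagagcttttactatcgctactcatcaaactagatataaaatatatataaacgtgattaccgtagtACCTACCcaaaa
CYP83A1: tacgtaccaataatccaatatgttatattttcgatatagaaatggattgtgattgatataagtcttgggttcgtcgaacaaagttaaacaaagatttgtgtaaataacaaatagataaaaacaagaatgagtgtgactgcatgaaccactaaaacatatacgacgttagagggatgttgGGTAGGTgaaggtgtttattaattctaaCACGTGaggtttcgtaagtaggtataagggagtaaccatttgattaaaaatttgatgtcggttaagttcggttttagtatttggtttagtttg

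The window of FMO GS-OX1 held no match to any of the 5 motifs. That of CYP81F2 held the W-box core at bases -193 and -108 relative to the start (first base of each match), GAGAC at -124 and ACCAACC at 17, with no overlap between them. CYP79F1 held ACCTACC at base 39, and CYP83A1 held ACCTACC at -71 and the G-box at -43. Over the 38 members with such a window, ACCTACC stood in 10.5% (IPMI2, CYP79F1, CYP79F2 and CYP83A1), beside 1.38% of the windows of 27443 protein-coding genes. ACCAACC stood in 21.1% of the members and 3.29% of all windows, and the G-box in 15.8% and 7.68%. The W-box core, at 44.7% and 50.5%, and GAGAC, at 31.6% and 32.8%, were about as frequent in the members as in all genes. CYP79F1 and CYP79F2 are tandem copies, so their windows are not independent. A match is a description of letters and no evidence of a bound site.

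In the wild type the transcripts of the 36 tested genes ran from 1.20 to 1263 CPM per kb of exon. TGG1 and TGG2, the leaf myrosinases, led with 1263 and 628 CPM per kb, followed by GSTU20, a glutathione transferase of the aliphatic core, at 456 CPM per kb. GGP1, a γ-glutamyl peptidase that trims the glutathione conjugates of both branches, stood at 201 CPM per kb, and CYP83A1 and CYP83B1, the oxime-metabolizing enzymes of the aliphatic and the indole branch, at 169 and 139 CPM per kb. The regulators were lower: MYB28, the main regulator of the aliphatic branch, stood at 31.9 CPM per kb, MYB34, MYB29 and MYB51 between 7.62 and 10.7 CPM per kb, and MYB76 at 1.20 CPM per kb. MYB122, a further indole regulator, had 2 counts over the 4 wild-type libraries and 5 over the mutant ones, and AOP3, a side-chain dioxygenase, had 1 and 1, so both stayed untested. Lengths are the union of a locus's annotated exons, and that of CYP79F1 is 3.272 kb.

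**Figure D1:**
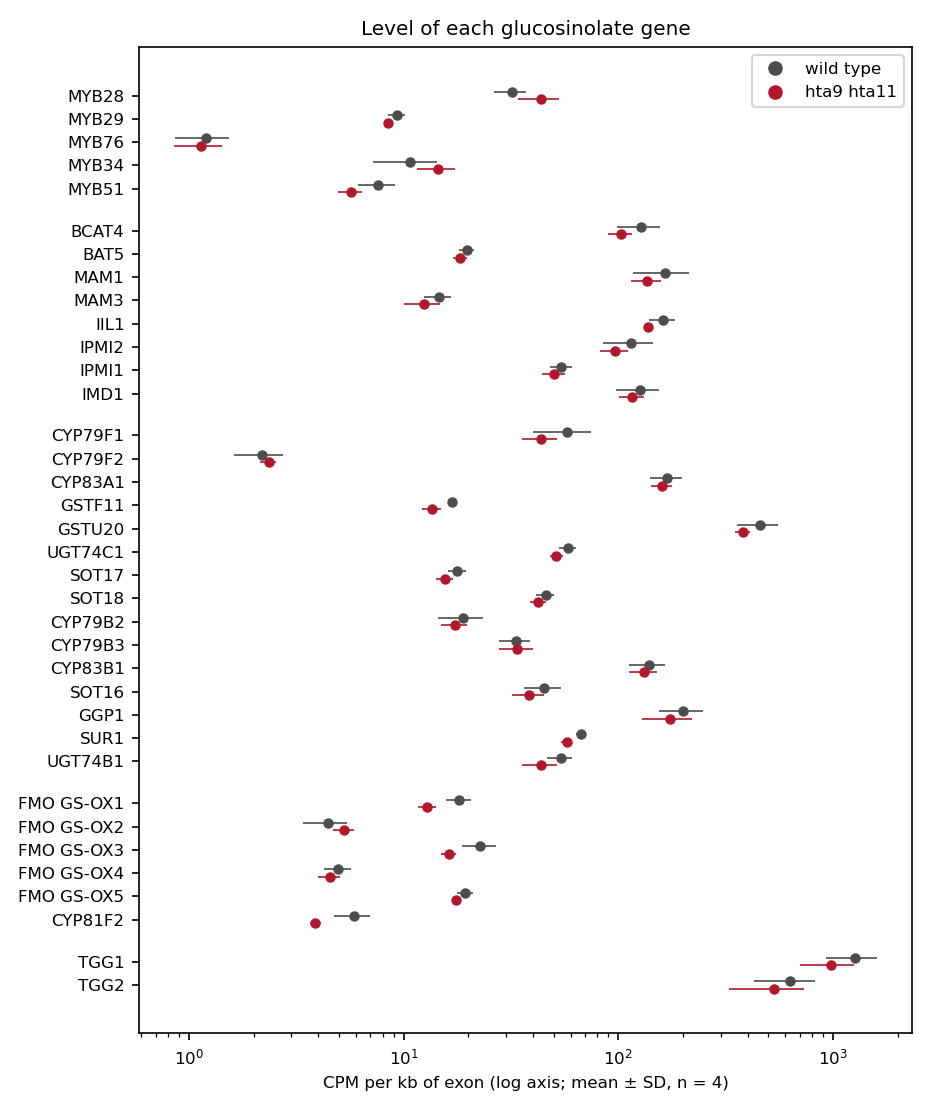
Level of the 36 tested genes in CPM per kb of exon on a log axis, by pathway step, with the mean ± SD of 4 libraries for wild type (grey) and hta9 hta11 (red). TGG1 and TGG2 stand highest and MYB76 lowest, and for most genes the error bars of the genotypes overlap.

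Several members are tandem copies, and the sources used here do not state how reads that map to several places were counted. CYP79F1 and CYP79F2 lie 1183 bp apart on chromosome 1 and share 91.9% of the aligned bases of their coding sequences. FMO GS-OX2 and FMO GS-OX3 share 85.0%, MAM1 and MAM3 83.8%, TGG1 and TGG2 82.7%, SOT16 and SOT18, only 151 bp apart, 80.5%, and MYB29 and MYB76 78.1%. The split of reads within these pairs is uncertain, most of all for CYP79F2, at 4.40 ± 1.12 CPM in the wild type beside 188 ± 57.1 CPM for CYP79F1 (SD, n = 4). FMO GS-OX5 overlaps AT1G12150 on the other strand by 1066 bases and the noncoding RNA gene AT1G04933 on its own strand by 955 bases. BCAT4 overlaps a gene on the other strand by 307 bases.

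The regulators did not pass, and they did not lean one way. MYB28 (AT5G61420, chromosome 5, 24689069 to 24691187) held 55.7, 78.5, 55.4 and 62.8 CPM in wild type libraries 1 to 4 and 68.2, 106.8, 97.2 and 72.7 CPM in hta9 hta11. Mutant libraries 2 and 3 lay above every wild-type library, while libraries 1 and 4 lay within their range. Its log2 fold change was 0.45 (SE 0.16, adjusted p = 0.173), the highest of the 36 members. MYB29 and MYB76, which act beside MYB28 on aliphatic genes, had log2 fold changes of -0.14 (SE 0.08, adjusted p = 0.392) and -0.06 (SE 0.24, adjusted p = 0.932). That of MYB29 was -0.08 without wild type library 2, and that of MYB76 ran from -0.22 without hta9 hta11 library 1 to 0.13 without wild type library 4.

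Of the indole regulators, MYB51 (AT1G18570) held 17.6, 12.1, 12.2 and 12.6 CPM in the wild-type libraries against 11.5, 10.8, 9.45 and 8.71 CPM in hta9 hta11. The groups did not overlap, but the log2 fold change of -0.42 ± 0.14 (SE, adjusted p = 0.139) did not pass and was -0.28 without wild type library 1, the highest of the 8. MYB34 held 15.9, 22.6, 25.7 and 11.9 CPM in the wild-type libraries against 29.8, 20.3, 22.1 and 30.2 CPM in the mutant. These groups overlapped, with mutant libraries 1 and 4 above all wild-type libraries, at a log2 fold change of 0.43 ± 0.23 (SE) and an adjusted p of 0.359. Without wild type library 4, its lowest, the log2 fold change was 0.26, and without wild type library 3 it was 0.61.

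**Figure D2:**
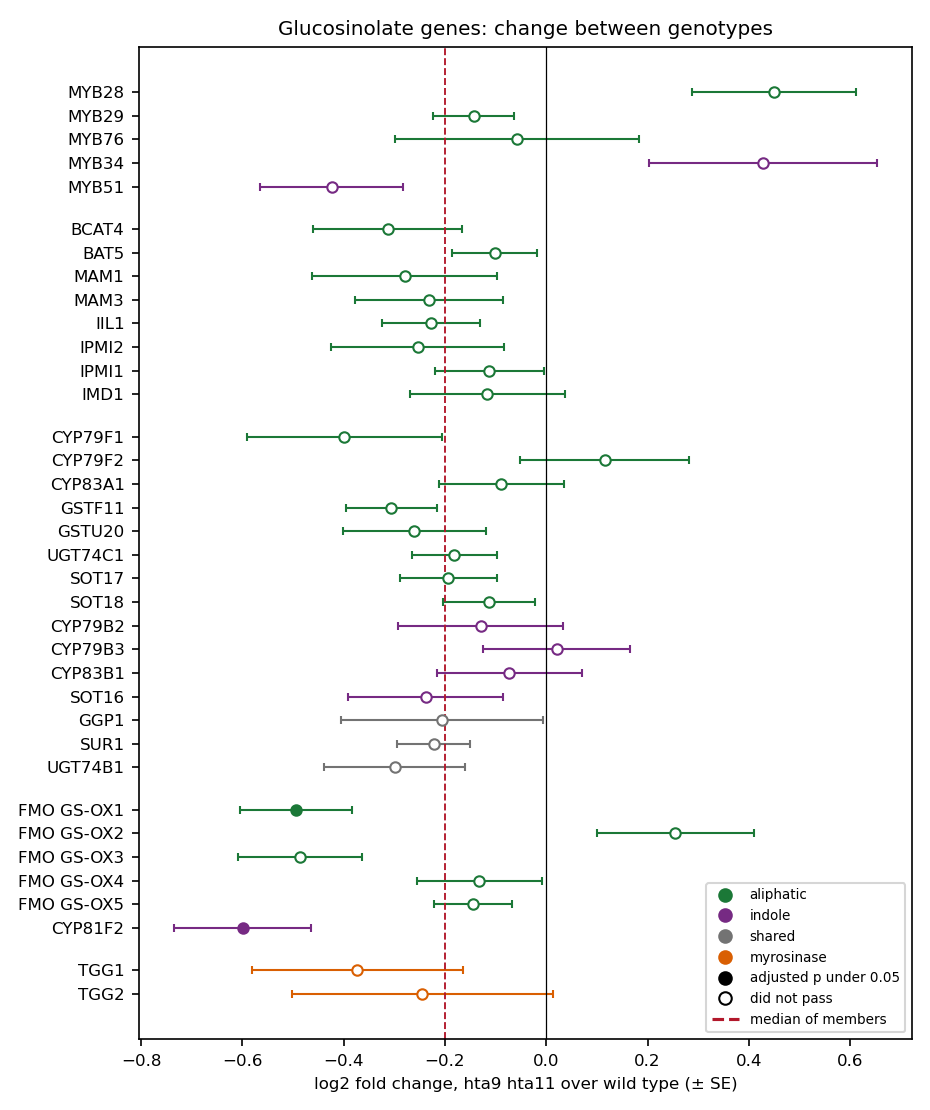
Log2 fold change ± SE of hta9 hta11 over wild type for the 36 tested genes, by pathway step from regulators at the top to myrosinases at the bottom, coloured by branch. Filled points passed, the dashed line is the median of the members (-0.20), and 31 of 36 points lie left of 0.

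Chain elongation, in which BCAT4 deaminates methionine, BAT5 carries the keto acid into the plastid, MAM1 and MAM3 condense it with acetyl-CoA and the isopropylmalate isomerase and dehydrogenase genes IIL1, IPMI1, IPMI2 and IMD1 complete the cycle, was measured through 8 genes. All 8 were tested and none passed, and all 8 log2 fold changes were below 0, from -0.31 to -0.10 with a median of -0.23. MAM1 had the highest wild-type mean in CPM (340, beside 332 for IIL1, which was the higher of the pair in hta9 hta11, at 283 against 280.0), with 286, 280, 306 and 487 CPM in the wild-type libraries against 228, 278, 339 and 276 CPM in hta9 hta11. Wild type library 4 stood far above the rest and the other libraries overlapped across the genotypes, at a log2 fold change of -0.28 ± 0.18 (SE) and an adjusted p of 0.472, or -0.05 without that library. IIL1 (AT4G13430), the large subunit of the isomerase, held 307, 298, 321 and 401 CPM in the wild-type libraries against 275, 271, 297 and 289 CPM in the mutant. Its groups did not overlap, by a margin of less than 1 CPM between wild type library 2 and hta9 hta11 library 3, and its log2 fold change of -0.23 ± 0.10 (SE, adjusted p = 0.249) did not pass and was -0.12 without wild type library 4.

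Of the 8 genes of the aliphatic core none passed, with log2 fold changes of -0.40 to 0.12 and a median of -0.19. GSTU20, the most abundant, held 521, 387, 517 and 668 CPM in the wild-type libraries against 429, 392, 450 and 477 CPM in hta9 hta11, which overlapped (log2 fold change -0.26 ± 0.14, SE, adjusted p = 0.377), and the log2 fold change was -0.12 without wild type library 4. CYP79F1, which turns elongated methionine into aldoximes, had 188 ± 57.1 CPM in the wild-type libraries against 143 ± 26.1 CPM in the mutant, and its wild-type spread came from library 4 at 274 CPM beside 154 to 167 CPM in the other 3 (adjusted p = 0.314). GSTF11, a glutathione transferase, held 15.5, 14.9, 15.9 and 16.3 CPM in the wild-type libraries against 12.9, 10.8, 13.0 and 14.0 CPM in hta9 hta11. The groups did not overlap, at a log2 fold change of -0.31 ± 0.09 (SE) and an adjusted p of 0.0975, which passed in DESeq2 (adjusted p = 0.0425). GSTF11 lies within AT3G03200 on the other strand over its whole length of 1096 bases, and without a stated strand setting their reads cannot be told apart.

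Of the 4 genes particular to the indole core none passed, with log2 fold changes of -0.24 to 0.02 and a median of -0.10. Without wild type library 3 that median was 0.045, with 1 of 4 below 0, and without hta9 hta11 library 2 it was -0.012, with 2 of 4 below 0. CYP83B1, the most abundant, held 248, 241, 338 and 228 CPM in the wild-type libraries against 283, 204, 236 and 280 CPM in hta9 hta11, and the groups overlapped (log2 fold change -0.07 ± 0.14, SE, adjusted p = 0.837). Its log2 fold change was 0.069 without wild type library 3 and 0.013 without hta9 hta11 library 2. CYP79B2 and CYP79B3, which convert tryptophan to its oxime, were at 91.4% and 101% of the wild-type mean, and the sulfotransferase SOT16 at 84.8%. The median of the 24 tested aliphatic genes over all steps was -0.16 and that of the 7 tested indole genes -0.13, with 21 of 24 and 5 of 7 below 0. The difference between the branches was not tested, since members are not replicates.

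The 3 core genes that serve both branches had log2 fold changes of -0.30 to -0.21 and none passed. SUR1 (AT2G20610), the C-S lyase, held 123, 117, 131 and 132 CPM in the wild-type libraries against 108, 99.7, 107 and 116 CPM in hta9 hta11. The groups did not overlap, at a log2 fold change of -0.22 ± 0.07 (SE) and an adjusted p of 0.132, which passed in DESeq2 (adjusted p = 0.0454). GGP1, the most abundant of them, spread more widely, with 256, 192, 318 and 211 CPM in the wild-type libraries against 261, 151, 179 and 255 CPM in the mutant (log2 fold change -0.21 ± 0.20, SE, adjusted p = 0.654). Its log2 fold change ran from -0.32 without hta9 hta11 library 1 to -0.05 without wild type library 3. The glucosyltransferase UGT74B1 was at 81.3% of its wild-type mean.

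Side-chain modification held both members that fell. FMO GS-OX1 (AT1G65860, chromosome 1, 24498954 to 24502776), which oxidizes the sulfur of methylthioalkyl side chains, held 29.4, 27.4, 32.0 and 37.3 CPM in the wild-type libraries against 23.8, 19.1, 23.2 and 23.4 CPM in hta9 hta11. All mutant libraries lay below all wild-type libraries, at 71.0% of the wild-type mean and a log2 fold change of -0.49 ± 0.11 (SE) and an adjusted p of 0.0379. The call ended in 6 of the 8 fits that left out 1 library, all but those without wild type library 2 and without hta9 hta11 library 1, and the adjusted p reached 0.108 when hta9 hta11 library 2 was left out.

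CYP81F2 (AT5G57220, chromosome 5, 23187840 to 23189902), which hydroxylates the indole ring on the way to 4-methoxyindol-3-ylmethyl glucosinolate, held 12.1, 9.56, 11.9 and 8.01 CPM in the wild-type libraries against 7.03, 6.29, 6.91 and 7.24 CPM in hta9 hta11. The groups did not overlap, and the mutant mean was 66.0% of the wild-type mean (log2 fold change -0.60 ± 0.14, SE, adjusted p = 0.0384), the lowest log2 fold change of the members. Wild type libraries 2 and 4 lay nearest to the mutant. The call ended in 6 of the 8 fits that left out 1 library, all but those without wild type library 4 (log2 fold change -0.70) and without hta9 hta11 library 1, and the adjusted p reached 0.117 when hta9 hta11 library 2 was left out. It also ended with upper-quartile scaling (0.0522).

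FMO GS-OX3 (AT1G62560), which shares 83.1% of aligned coding bases with FMO GS-OX1, showed a difference of like size, with 53.9, 41.7, 49.0 and 63.8 CPM in the wild-type libraries against 33.7, 36.3, 40.9 and 37.6 CPM in hta9 hta11. The groups did not overlap, with less than 1 CPM between wild type library 2 and mutant library 3. Its log2 fold change of -0.49 ± 0.12 (SE, adjusted p = 0.0583) did not pass, but did in DESeq2 (adjusted p = 0.0074), without a count filter (0.0445) and without wild type library 2 (0.0342). FMO GS-OX2, next to it on chromosome 1, was at 119% of the wild-type mean (adjusted p = 0.432), and FMO GS-OX4 and FMO GS-OX5 were at 91.1% and 90.4%.

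**Figure D3:**
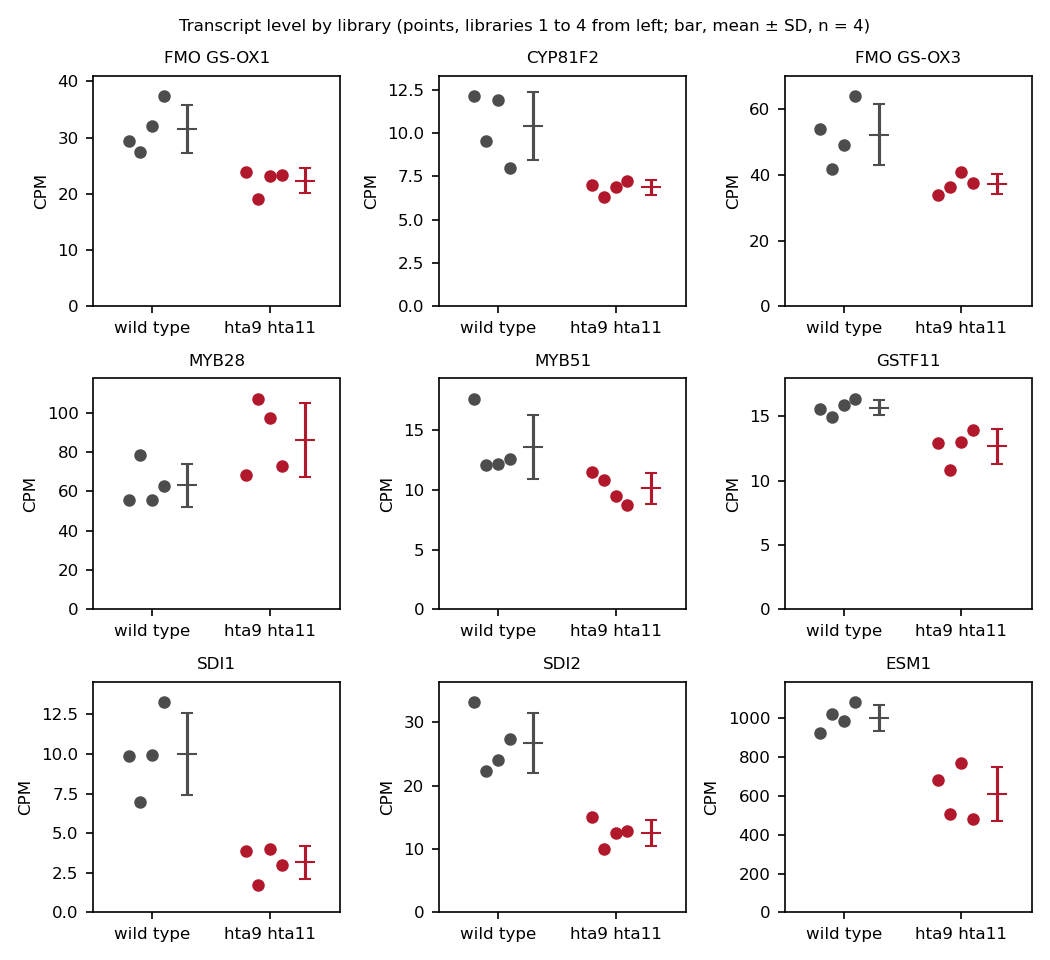
CPM in each library for 6 members and, in the bottom row, for SDI1, SDI2 and ESM1, with libraries 1 to 4 of each genotype from left to right and the mean ± SD (n = 4) beside them. In every panel but that of MYB28 all 4 mutant libraries lie below all 4 wild-type libraries.

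In all, 7 of the 36 members showed no overlap between the groups, each of them lower in hta9 hta11: MYB51, IIL1, GSTF11, SUR1, FMO GS-OX1, FMO GS-OX3 and CYP81F2. That is 19.4% of the members, beside 5.07% of all tested genes that were lower without overlap and 6.23% that were higher (11.3% in either direction). The same 7 genes were lower, and MYB28 was higher, at an unadjusted p under 0.05. These 8 are 22.2% of the members beside 18% of all tested genes, of which 8.46% were lower and 9.58% higher.

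The myrosinases TGG1 and TGG2, which cleave glucosinolates on tissue damage, did not pass. TGG1 held 1885, 2067, 2295 and 3316 CPM in the wild-type libraries against 1695, 1517, 2610 and 1560 CPM in hta9 hta11 (log2 fold change -0.37 ± 0.21, SE, adjusted p = 0.389). TGG2 held 935, 1033, 1172 and 1807 CPM and 896, 820, 1634 and 825 CPM (log2 fold change -0.24 ± 0.26, SE, adjusted p = 0.685). In both genes mutant libraries 1, 2 and 4 lay below every wild-type library, and mutant library 3 lay above wild type libraries 1 to 3. Without hta9 hta11 libraries 1 and 3 the log2 fold changes were -0.64 and -0.59, and without wild type library 4 they were -0.17 and -0.005, without a call in either fit. With only hta9 hta11 library 3 left out the log2 fold changes were -0.59 and -0.55. Leaving out only hta9 hta11 library 1 gave -0.34 and -0.18, again without a call. TGG1 is expressed in guard cells and myrosin cells, and of 3 guard and myrosin cell markers none passed. Their summed level was 45.2 to 54.5 CPM in the wild-type libraries, highest in library 2, and 49.0 CPM in library 4, where both TGG genes were highest. In hta9 hta11 their sum was 42.8 to 56.8 CPM, highest in library 3. Singly the markers went both ways, with log2 fold changes of 0.15 for FAMA, 0.12 for MYB60 and -0.23 for KAT1. Their part in the TGG values was not tested, and in whole rosettes fewer cells of a type and less RNA per cell cannot be told apart.

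The libraries of one genotype also differed among themselves, with another profile in each branch. Of the 16 chain elongation and aliphatic core genes, 14 had their highest level of all 8 libraries in wild type library 4, as did all 5 FMO GS-OX genes and both myrosinases. For the 16 genes the median deviation from the mean of the 8 libraries on the log2 scale was 0.39 in that library. It was -0.07 to 0.05 in the other wild-type libraries, and -0.24, -0.15, 0.03 and -0.002 in hta9 hta11 libraries 1 to 4. In wild type library 4 the FMO GS-OX genes were at 0.31 and the myrosinases at 0.71, and the myrosinases were at 0.47 in hta9 hta11 library 3. The 4 indole core genes had another profile. All 4 were highest among the wild-type libraries in library 3, with a median deviation of 0.43, and lowest of all 8 libraries in hta9 hta11 library 2, at -0.34, and wild type library 4 was at -0.17.

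Without wild type library 4 the median log2 fold change of the 36 members went from -0.20 to -0.12 and that of the 16 aliphatic genes from -0.21 to -0.10, with 29 of 36 and 13 of 16 below 0. Of 4 vascular markers, XCP1 had an unadjusted p under 0.05 (adjusted p = 0.168) and the others did not. Their summed level was 348 to 401 CPM in wild type libraries 1 to 3, 472 CPM in library 4 and 339 to 411 CPM in hta9 hta11, and its part in the high aliphatic levels of library 4 was not tested.

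**Figure D4:**
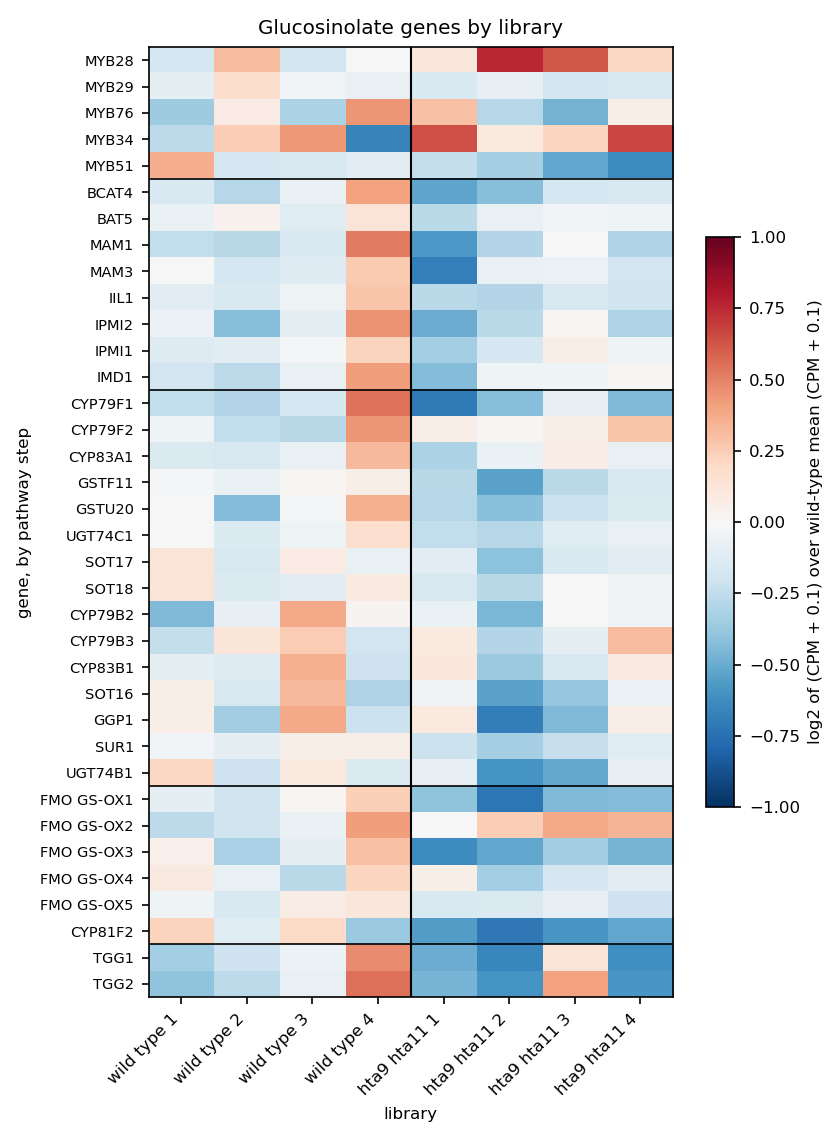
Log2 ratio of each tested gene's level (CPM + 0.1) to its wild-type mean in each of the 8 libraries, with genes ordered by pathway step and lines between steps. Wild type library 4 is red over chain elongation, most of the aliphatic core and the myrosinases, and the mutant columns are mostly blue, with exceptions such as MYB28, MYB34 and FMO GS-OX2.

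**Figure D5:**
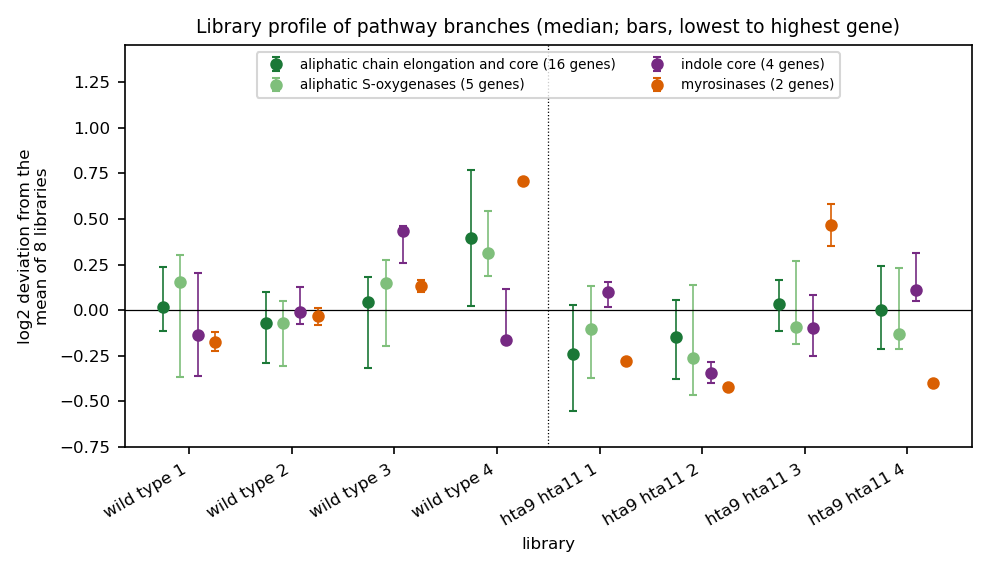
Median log2 deviation from the mean of the 8 libraries for 4 sets of genes in each library, with bars from the lowest to the highest gene of the set. The aliphatic sets and the myrosinases are highest in wild type library 4, and the indole core is highest in wild type library 3 and lowest in hta9 hta11 library 2.

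A further 51 genes of the pathway's surroundings were listed, of which 45 were tested. Of these 3 fell and 42 did not pass, and of the 45 at an unadjusted p under 0.05 2 were higher and 6 lower, the 3 that fell included, beside 9.58% and 8.46% of all tested genes. The 3 are 6.67%, beside 1.25% of all tested genes that fell and 3.74% that changed in either direction. These genes too were listed with earlier results of these data known, so the shares carry no test of the list. The median log2 fold change of the 45 was -0.10. Of 11 regulators and transporters, SDI1 and SDI2 fell, both induced by sulfur deficiency and known to lower glucosinolate synthesis, SDI1 by binding MYB28. SDI1 (AT5G48850) held 9.91, 6.94, 9.94 and 13.3 CPM in the wild-type libraries against 3.86, 1.72, 4.03 and 3.01 CPM in hta9 hta11 (log2 fold change -1.66 ± 0.26, SE, adjusted p = 0.00982). SDI2 (AT1G04770) held 33.1, 22.3, 24.1 and 27.3 CPM and 15.0, 9.94, 12.5 and 12.9 CPM (log2 fold change -1.08 ± 0.15, SE, adjusted p = 0.00562), with no overlap in either gene. In each of 16 other fits both genes kept their call. The highest adjusted p was 0.0434 for SDI1 and 0.0262 for SDI2, both without hta9 hta11 library 4. SDI2 overlaps AT1G04760 on the other strand by 431 bases.

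Among 14 tested genes of breakdown and product specification, ESM1 fell, a modifier protein that favours isothiocyanates over nitriles as breakdown products. ESM1 (AT3G14210) held 921, 1021, 987 and 1081 CPM in the wild-type libraries against 684, 505, 768 and 482 CPM in hta9 hta11, without overlap (log2 fold change -0.72 ± 0.14, SE, adjusted p = 0.0248). Leaving out library 2, 3 or 4 of the wild type or library 2 or 4 of the mutant ended this call, and the adjusted p reached 0.0753 without mutant library 4. Without mutant libraries 1 and 3 together the call held, at a log2 fold change of -1.02 and an adjusted p of 0.00171. Among 15 other tested synthesis genes the lowest adjusted p was 0.127, with 2 at an unadjusted p under 0.05, and among 5 genes of precursor supply it was 0.304.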

How the data were processed

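The authors deposited 1 table of whole-number read counts per gene for 8 libraries. The tools named, per the submitters' processing notes, are HISAT2 2.2.1, fastp 0.23.2, SAMtools 1.17, limma and DESeq2, and the build is TAIR10. Libraries were made with a directional poly(A) kit, per the labels' protocols. What counted the reads, whether by strand, and how multiply mapped reads were treated is not given in the sources used here. Columns were matched to samples by genotype and replicate number in the titles, and 0 value columns were left unused. The labels' protocols describe pools of separate plants and speak of fewer replicates than the 4 per genotype listed and used here.

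With edgeR 4.0.16 (R 4.3.3), low genes were removed by filterByExpr, libraries were scaled by TMM, and genotype was tested by the quasi-likelihood F test, 2-sided, with Benjamini-Hochberg adjustment over 20214 genes. All adjusted p-values are from this test unless another tool is named. The SE is the size of the log2 fold change divided by the square root of F. CPM use TMM-scaled library sizes. Library deviations use log2(CPM + 0.1). The test was checked on simulated data with changes larger than those of the members, so the check does not cover changes of their size. All 12 pairs of libraries of one genotype differed by more than counting error (chi-square over degrees of freedom 12.5 to 45.3), so none was taken as a repeat. The p-values measure the spread between these libraries, and the check does not show that each is a separate pool of plants. Gene names, positions and sequences come from RefSeq's annotation of TAIR10.1, which matched 36632 identifiers.

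The members and lists were chosen with earlier results of these data known. Members that passed, the MYB and TGG genes, the most abundant of each step and branch, and those with an unadjusted p under 0.05 are given in full, with up to 4 that passed from each further list. Other values named were chosen after they were seen. The alternatives tried were scaling by RLE or upper quartile, no count filter, at least 1 CPM in 4 libraries, a replicate block, DESeq2 1.42.0, limma-voom 3.58.1, an adjusted p under 0.01, each library left out, and hta9 hta11 libraries 1 and 3 left out.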

Additional observations from a re-analysis of the deposited data

Results flagged for a closer look

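Of 78 groups of 4 libraries screened, those of the 36 members and of SDI1, SDI2 and ESM1, 10 had 1 library set apart from the other 3, where chance flags about 1 in 20 groups. Genes of a branch move together, so the 10 are not independent.

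Wild type library 4 stood high for MAM1 (487 CPM, the others 280 to 306), CYP79F1 (274 CPM, the others 154 to 167) and CYP83A1 (405 CPM, the others 289 to 308). Hta9 hta11 library 3 stood high for both myrosinases, with TGG1 at 2610 CPM beside 1517 to 1695 and TGG2 at 1634 CPM beside 820 to 896. Hta9 hta11 library 2 stood low for SOT17 (20.1 CPM, the others 24.0 to 24.7), CYP79B2 (29.5 CPM, the others 38.7 to 40.5) and FMO GS-OX1 (19.1 CPM, the others 23.2 to 23.8). Wild type library 1 stood high for MYB51 (17.6 CPM, the others 12.1 to 12.6), and hta9 hta11 library 1 stood low for IMD1 (159 CPM, the others 209 to 217).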

How the results depend on the processing

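The 757 genes changed over the whole table became 1524 in DESeq2, 152 at an adjusted p under 0.01 and 208 to 1246 when 1 library was left out. The 2 members that fell became 1 with upper-quartile scaling, 5 in DESeq2 (FMO GS-OX3, GSTF11 and SUR1 besides the 2), 0 at an adjusted p under 0.01, 0 without hta9 hta11 libraries 1 and 3, and 0 to 2 when 1 library was left out; no member rose in any of these fits. The number of members below 0 stayed between 29 and 32. Of 20 genes recomputed singly, MYB76 (-0.22 to 0.13, positive without wild type library 4 or mutant library 2 or 3) and CYP83B1 (-0.14 to 0.069, positive without wild type library 3 or mutant library 2) changed sign when 1 library was left out, and the cause was not tested. The replicate number as a block left 2 members called, with 847 genes in all. The same-numbered libraries did not deviate together in every pair, with correlations of 0.50, 0.45, -0.33 and -0.25 for numbers 1 to 4. Between libraries of different numbers the correlations ran from -0.45 (wild type library 4 with hta9 hta11 library 1) to 0.50 (wild type library 4 with hta9 hta11 library 3). A block by number does not capture the latter. With 4 libraries per genotype, SEs of 0.07 to 0.26 on the log2 scale limit which differences of this size can pass.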
